A study of Homo sapiens with 3 samples.

Results

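REST and 7 genes of the corepressor complexes that work with it were described here in human neurons, by the accessible chromatin in and around each gene. The members are REST, RCOR1, RCOR2, RCOR3, KDM1A, HDAC1, HDAC2 and SIN3A, a group fixed by name. An accessible region belonged to a gene when a summit, the point of highest signal, lay inside the RefSeq gene or within 50 kb of either outer end. This gave 45 of the 65234 distinct regions of the list, with 115 of its 145092 summits, and no region fell in the windows of 2 members. All 3 samples were biological replicates of 1 group: neurons of KOLF2.1J, an established line of human induced pluripotent stem cells, that carried the neurogenic factor NGN2 (labelled KOLF2.1J-hNGN2) and had differentiated for 14 days. There was no untreated, undifferentiated or other control group, and a single cell line is a single genetic background. ATAC-seq was used, in which the Tn5 transposase cuts accessible DNA and leaves sequencing adapters there, and the authors combined the replicates into 1 peak list. Replicates cannot be separated in it. Values therefore come with no standard deviation and no test between samples, and what follows compares positions of 1 list with each other.

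REST, also called NRSF, is a zinc finger repressor that binds a DNA element known as RE1 at many neuronal genes and keeps them silent in cells that are not neurons. It recruits a complex around the CoREST scaffolds, which are encoded by RCOR1, RCOR2 and RCOR3, through one end of the protein, and a complex around the SIN3 scaffold through the other. The CoREST complex carries the histone demethylase KDM1A (LSD1) and the histone deacetylases HDAC1 and HDAC2, and the SIN3 complex carries the same deacetylases. REST is known to fall as neurons form, while the corepressors act with many other factors and are broadly expressed. Accessibility at a gene's start is not a measure of its transcript or protein, and neither was analysed here.

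The labelled cell type was set against marker genes. All 6 pan-neuronal markers with a listed start (MAP2, TUBB3, RBFOX3, DCX, SYT1 and ELAVL4) had a summit within 1 kb of a start, as did 72.4% of all protein-coding genes with a listed start. Of 5 pluripotency markers with a listed start only DPPA4 had one, and NANOG, ZFP42, UTF1 and CRIPTO had none. Of 3 glial markers AQP4 and MBP had one, with fold enrichments of 3.87 and 3.58, and MOG had none. The 6 neuronal starts ran from 3.48 at ELAVL4, below both glial genes, to 10.3 at SYT1, with a median of 6.60. Of these, 0 exceeded the median of 10.8 over all genes with a region at the start, and DPPA4 had 5.41. By another rule, a summit within 1 kb of an outer gene end, which can be applied to markers without a listed start, 8 of 10 pan-neuronal, 1 of 7 pluripotency and 3 of 6 glial markers were called, beside 68.8% of all protein-coding genes. The rules call different genes: RBFOX3, ELAVL4 and DPPA4 were called by a start and not by an outer end, and the pluripotency marker called by an outer end was LIN28A.

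Values are given as follows. Fold enrichment is the authors' ratio of the tags at a summit to a local background, and the tag count and background behind each ratio were recovered from the deposited values. The peak caller is not named, and how it formed the background was inferred: the steps of the recovered backgrounds are those of tags averaged over 10 kb around the summit, under an assumed tag length. If so, a background includes the region itself and its close neighbours. Intervals of a tag count are exact 95% Poisson intervals, and intervals of a fold enrichment carry these through with the background held fixed. They cover counting error only, since the tags have no molecular identifiers and the replicates are pooled. A percentile is the place of a member among the protein-coding genes, or among the distal regions, of the same list. A distal region is one with no summit within 1 kb of any outer gene end or listed start in the RefSeq table.

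Sequence just ahead of 7 starts is shown. A summit or the strongest region of a member lies in or beside each stretch, and the stretches differ in what they hold. RCOR1 and the first RCOR3 start also have a summit in the 250 bases before them and are not shown. Each stretch shown is the 250 bases before a RefSeq start (GRCh38.p14), written from 5′ to 3′ on the strand of the gene. Capitals mark the words that were searched for.
REST, first start, chr4:56907650-56907899, plus strand: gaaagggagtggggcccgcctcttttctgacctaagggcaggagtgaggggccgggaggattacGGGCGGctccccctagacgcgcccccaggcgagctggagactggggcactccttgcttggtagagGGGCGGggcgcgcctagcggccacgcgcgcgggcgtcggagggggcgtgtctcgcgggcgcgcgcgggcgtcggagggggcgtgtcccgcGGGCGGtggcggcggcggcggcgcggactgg
REST, second start, chr4:56908660-56908909, plus strand: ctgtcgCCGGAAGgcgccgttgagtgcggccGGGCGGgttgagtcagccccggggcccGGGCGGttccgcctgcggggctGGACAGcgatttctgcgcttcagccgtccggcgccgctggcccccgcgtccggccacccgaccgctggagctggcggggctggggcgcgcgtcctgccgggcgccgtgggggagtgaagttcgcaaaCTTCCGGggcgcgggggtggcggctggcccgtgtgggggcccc
KDM1A, chr1:23019218-23019467, plus strand: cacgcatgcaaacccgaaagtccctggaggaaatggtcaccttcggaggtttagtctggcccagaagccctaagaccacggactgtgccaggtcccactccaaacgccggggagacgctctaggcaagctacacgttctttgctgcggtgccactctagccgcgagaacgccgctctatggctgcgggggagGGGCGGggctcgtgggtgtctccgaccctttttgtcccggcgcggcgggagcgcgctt
HDAC1, chr1:32291833-32292082, plus strand: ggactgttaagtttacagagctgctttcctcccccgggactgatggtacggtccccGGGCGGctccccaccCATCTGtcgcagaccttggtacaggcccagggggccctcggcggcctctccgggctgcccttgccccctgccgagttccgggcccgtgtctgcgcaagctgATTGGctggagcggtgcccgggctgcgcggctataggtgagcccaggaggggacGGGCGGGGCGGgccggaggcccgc
HDAC2, chr6:113971149-113971398, minus strand: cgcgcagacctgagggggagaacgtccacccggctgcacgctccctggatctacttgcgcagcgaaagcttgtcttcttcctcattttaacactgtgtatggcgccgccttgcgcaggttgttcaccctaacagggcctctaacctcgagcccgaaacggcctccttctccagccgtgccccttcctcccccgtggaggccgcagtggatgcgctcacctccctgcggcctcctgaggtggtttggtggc
SIN3A, first start, chr15:75455816-75456065, minus strand: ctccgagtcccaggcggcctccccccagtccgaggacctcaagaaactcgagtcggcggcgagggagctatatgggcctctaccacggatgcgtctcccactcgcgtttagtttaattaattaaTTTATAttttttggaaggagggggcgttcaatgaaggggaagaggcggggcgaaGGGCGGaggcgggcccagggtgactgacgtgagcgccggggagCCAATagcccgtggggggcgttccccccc
SIN3A, second start, chr15:75451691-75451940, minus strand: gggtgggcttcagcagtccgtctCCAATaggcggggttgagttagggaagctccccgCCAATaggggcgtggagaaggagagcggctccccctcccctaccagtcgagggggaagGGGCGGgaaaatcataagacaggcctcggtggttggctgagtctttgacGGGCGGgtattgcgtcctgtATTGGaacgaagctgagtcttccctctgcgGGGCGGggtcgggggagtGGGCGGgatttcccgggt

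The table listed 10 promoters for 7 members, and RCOR2 had no entry. In 300-base windows (250 before to 50 after each start) the members' promoters held between 23 and 46 CpG dinucleotides. All 10 lay above the median of 21 over the 22199 promoters of protein-coding genes. Their GC content ran from 59.7%, at the first SIN3A start, to 79.3%, at the second REST start, beside a median of 62.3%. A summit fell inside the window at 8 of the 10, beside 59.4% of all 22199 promoters. The exceptions were the second starts of RCOR3 and SIN3A, whose nearest summits lay 257 and 313 bp upstream.

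Words were searched on both strands. The GC box GGGCGG stood in 9 of the 10 windows and in 56.3% of all promoters, and HDAC2 was the member without it. In places GC boxes overlap, as in the run that starts 24 bases before the HDAC1 start. The CCAAT box (CCAAT) was found in 5 windows, at HDAC1, RCOR1, RCOR3 and both SIN3A starts, and in 34.7% of all promoters. The ETS word CCGGAAG, in 12.8% of all promoters, was present at the second REST start in both orientations, with first bases 244 and 43 bases before the start. An E-box of the form CAGATG, in 12.2%, was found at HDAC1, and a TATA word (TATAAA), in 9.47%, at the first SIN3A start, 126 bases upstream on the opposite strand. The left part of the RE1 element (CAGCACC), in 7.83% of all promoters, was present at the second RCOR3 start. The right part (GGACAG), in 21.1%, was present at RCOR1 and at the second REST start. No member's window held both parts. The words for NRF1 (GCGCATGCG), YY1 (AAGATGGCG) and the cyclic AMP response element (TGACGTCA) were each in between 2.26% and 2.41% of all promoters and in no member's. The HDAC2 window held none of the 10 words. A word is a match of letters and does not show that a factor binds there.

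A summit lay within 1 kb of a listed start in 7 of 7 members with such a start. The same held for 72.4% of the 15843 protein-coding genes with a listed start, so an accessible start is the usual state of a gene in this list. RCOR2, without a listed start, had a summit within 1 kb of an outer end, which made 8 of 8 members by the rule of outer ends, beside 68.8% of all protein-coding genes. Their start regions differed more in depth than in presence. Fold enrichment ran from 5.46 at SIN3A to 12.7 at KDM1A, and only KDM1A exceeded the median of 10.8 over all genes with a region at the start (quartiles 7.42 and 13.6). The highest tag count at the start ran from 521 at HDAC1 to 2889 at SIN3A, around a median of 1046 that was close to the 989 of all genes (quartiles 554 and 1463).

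**Figure D1:**
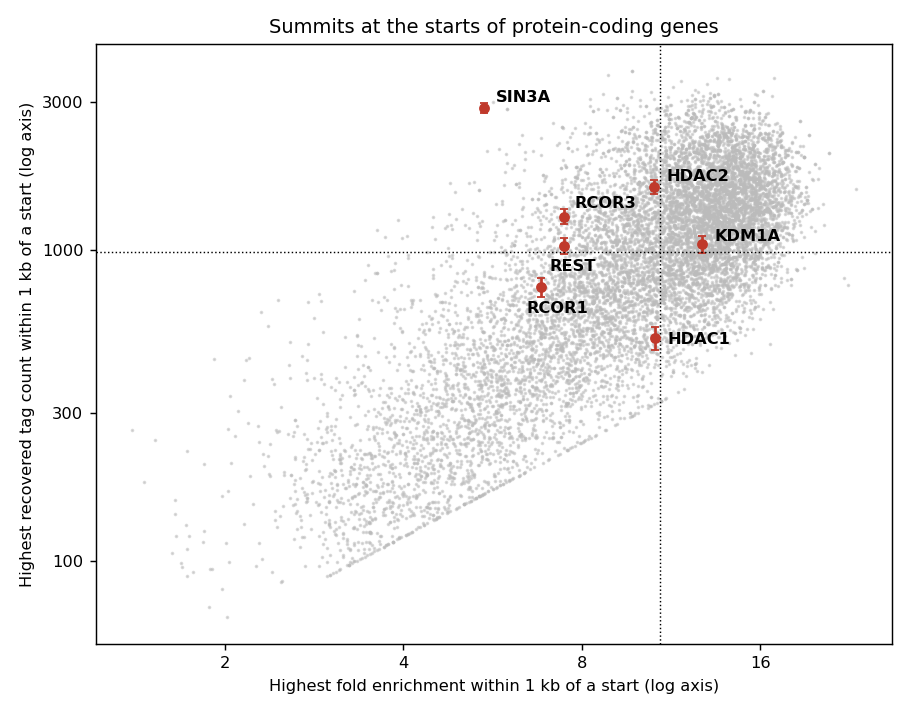
Highest fold enrichment (horizontal, log axis) against highest recovered tag count (vertical, log axis) within 1 kb of a start, for each protein-coding gene with a region there (grey) and for 7 members (red, bars are exact 95% Poisson intervals of the tag count). Dotted lines are the medians of all genes, 10.8 and 989; SIN3A stands apart with a low ratio of 5.46 on a high count of 2889.

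By fold enrichment the order was KDM1A, HDAC1, HDAC2, REST, RCOR3, RCOR1 and SIN3A. Neighbours in that order whose counting intervals overlapped were HDAC1 and HDAC2, REST and RCOR3, and RCOR3 and RCOR1. By tag count the order was SIN3A, HDAC2, RCOR3, KDM1A, REST, RCOR1 and HDAC1, and only KDM1A and REST had overlapping intervals. The orders are unlike because the local backgrounds ran from 48.2 tags at HDAC1 to 528.0 at SIN3A.

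REST lies on the plus strand at chr4:56907900-56935844, with listed starts at 56907900 and 56908910. One region of 2354 bp, at chr4:56907105-56909458, covered both starts. It had 4 summits, with 1034, 540, 374 and 324 tags from the upstream end onward, and fold enrichments of 7.47, 3.93, 2.74 and 2.39. The strongest lay 143 bp before the first start, inside the first sequence printed for REST, and the summit with 374 tags lay 37 bp past the second start. The fold enrichment of 7.47 (counting interval 7.03 to 7.94) stood at percentile 25.4 of gene starts, and its tag count of 1034 (972 to 1099) at percentile 52.6, with a background of 137.5 tags. The signal was thus highest at the upstream start and lower at each summit downstream.

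No other region lay inside REST, whose gene spans 27.9 kb. The strongest region of its window by fold enrichment was distal, at chr4:56870783-56872055, 36.3 kb upstream of the first start and outside any gene of the table. Its main summit had a fold enrichment of 12.8 and 857 tags over a background of 65.8, and a second summit had 272 tags. Those values stood at percentiles 98.8 and 97.9 of the 45974 distal regions of the list. Its ratio was above that of the REST start, while its tag count was below it. A second, weak distal region lay 46.3 kb upstream with a fold enrichment of 3.41 and 117 tags. On the other side, 69.8 kb downstream of the first start, a region with a fold enrichment of 9.10 lay at ends of NOA1 and POLR2B. Another, 70.9 kb downstream with 5.48, lay at an end of POLR2B only. Nothing in the list links a distal region to the gene it acts on, and distance alone placed these regions with REST.

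**Figure D2:**
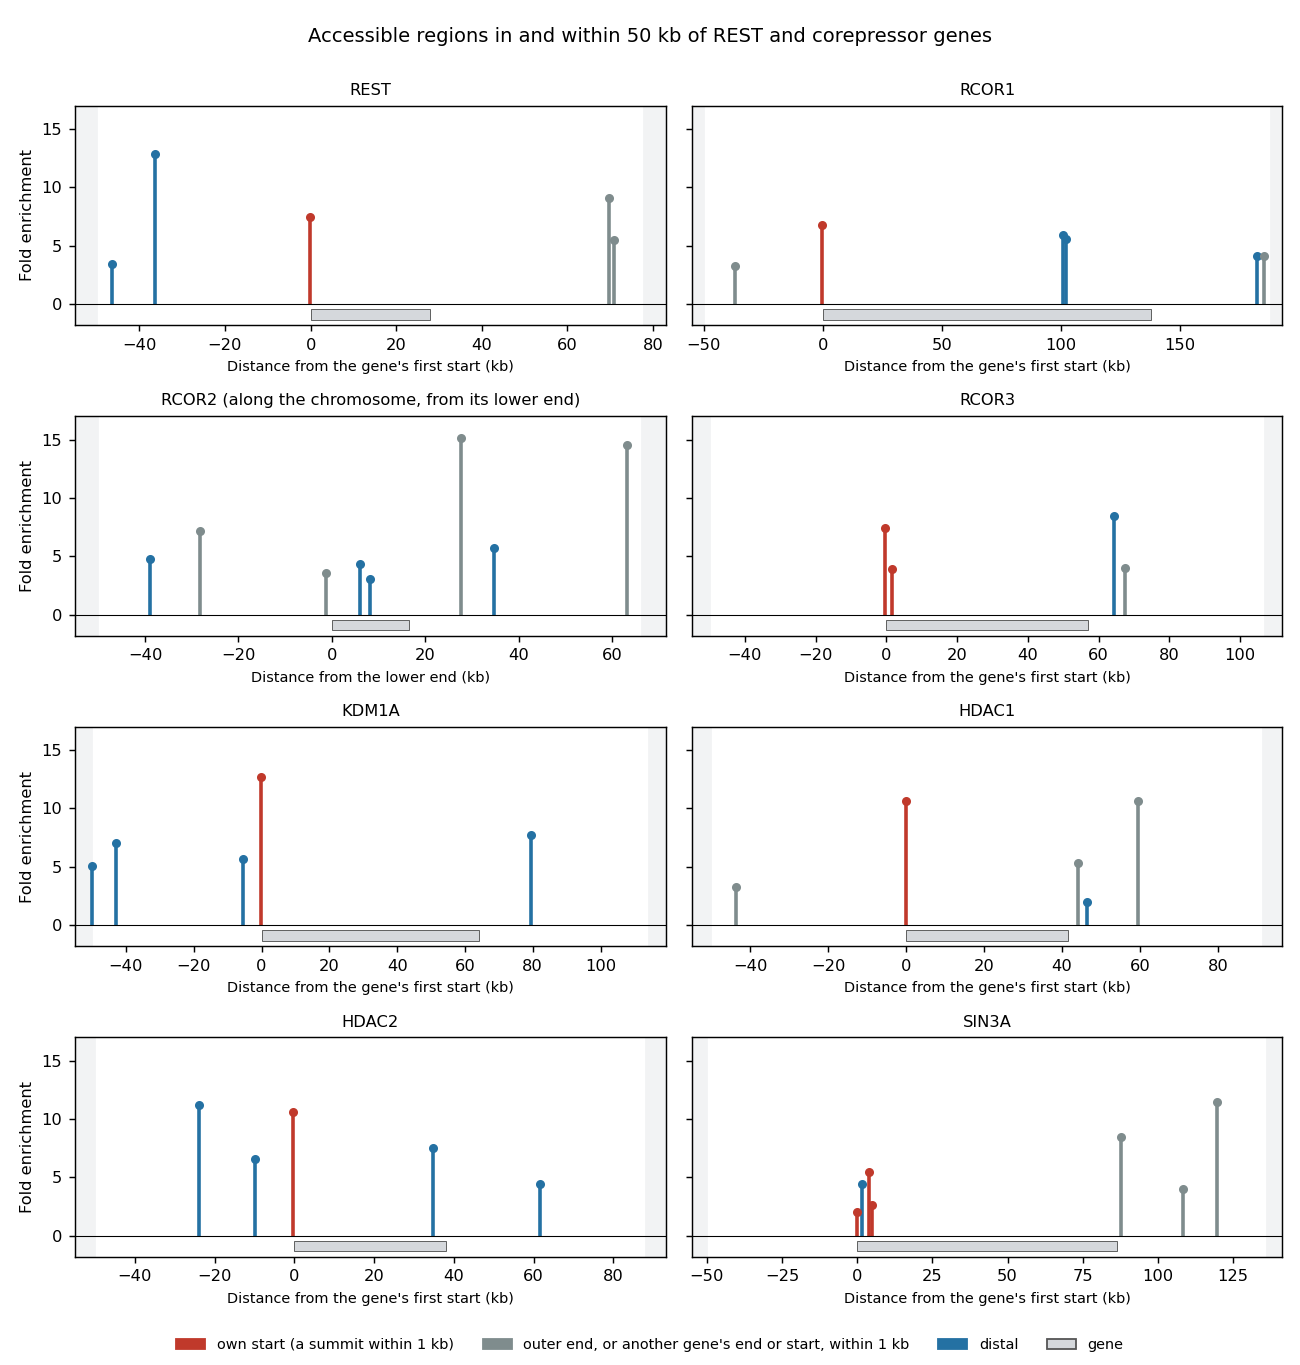
Fold enrichment (vertical) of each region of the 8 windows against its distance from the gene's first listed start in kb (horizontal; from the lower chromosome end for RCOR2), with the gene drawn as a bar and the area beyond 50 kb shaded. Red marks a region at the gene's own start, grey one at an outer end or at another gene's end, and blue a distal one; at REST the distal region at 12.8 stands above the start at 7.47.

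The 3 CoREST scaffolds, which hold the demethylase and the deacetylases together, differed in how their regions were laid out. RCOR1, the founding scaffold, lies on the plus strand at chr14:102592649-102730561. Its start region, chr14:102591491-102593903, was 2413 bp wide with 4 summits, the strongest 230 bp before the start. The fold enrichment was 6.82 (6.34 to 7.32), at percentile 21.2, and the tag count 761 (708 to 817), at percentile 36.8. RCOR1 is the longest of the members at 137.9 kb, and inside it a pair of distal regions stood 100.9 and 102.1 kb from the start. The first, chr14:102693197-102693746, had a fold enrichment of 5.94 and 237 tags, and the second, chr14:102694421-102695132, 5.59 and 223 tags. With backgrounds of 39.0 and 39.1 tags, the pair had closely similar depth. The remaining RCOR1 regions lay at LINC02323 upstream (3.31), just ahead of TRAF3 (4.12, distal) and at TRAF3 itself (4.14).

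RCOR2, the scaffold best known from stem cells and neural progenitors, spans chr11:63911230-63927762 and is the shortest member at 16.5 kb. It has no entry in the promoter table, so its strand and any start inside the gene were not used here, and the regions inside it count as distal only by their distance from its outer ends. The wider one, chr11:63916382-63918827, spanned 2446 bp with 6 summits and was the widest of the 45 regions. Its summits had tag counts of 476, 386, 499, 741, 279 and 687 along the chromosome, so that there were 2 comparable high points with lower ones around them. The highest gave a fold enrichment of 4.33 over a background of 170.2 tags, at percentile 34.6 of distal regions, whereas its 741 tags (689 to 796) stood at percentile 96.9. A neighbouring region at chr11:63919008-63919715 had 519 tags and a fold enrichment of 3.06.

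The RCOR2 window was the most crowded of the 8, with 8 regions and 24 summits. These placed it at percentiles 82.0 and 91.8 of protein-coding genes, and at percentile 86.9 for regions among the 2024 genes within 20% of its length. The strongest regions there belonged to neighbours: NAA40, with a fold enrichment of 15.1 and 1596 tags at its end, and COX8A, with 14.5 and 1465. On the other side the regions lay in MARK2. One of these, 1.26 kb from the lower end of RCOR2, had 205 tags and a fold enrichment of 3.54, and one of its weaker summits, 832 bp from that end, made the call at the outer end. A call at an outer end of RCOR2 therefore rested on a region shared with MARK2.

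RCOR3 lies on the plus strand at chr1:211259366-211316385, with listed starts at 211259366 and 211259947. It had 2 regions at its starts, as did 9.91% of genes with a region at a start when genes with more are included. The upstream one, chr1:211258316-211259819, had a fold enrichment of 7.46 (7.06 to 7.88) and 1284 tags (1215 to 1356), and its strongest summit lay 298 bp before the first start. Another of its summits, with 941 tags, lay 3 bp before that start. An end of LOC105372902 also lay within 1 kb of a summit of this upstream region, and the strongest summit fell inside that gene. Signal of RCOR3 and LOC105372902 cannot be told apart there. The second region, chr1:211260204-211261091, lay past both starts and had 671 tags and a fold enrichment of 3.95. The background of 171.2 tags was the highest among member starts after SIN3A. A distal region 64.3 kb downstream of the first start, and 7.25 kb beyond the gene, had a fold enrichment of 8.46 and 407 tags, at percentiles 87.0 and 86.5 of distal regions. RCOR3 had the fewest regions of the 8, 4 in all, and the last of these was at TRAF5 (4.03).

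KDM1A, which removes methyl groups from lysine 4 of histone H3, lies on the plus strand at chr1:23019468-23083689. Its start region, chr1:23018982-23020407, had 3 summits with 1046, 573 and 148 tags. The first of these lay 71 bp before the start, within the printed sequence, where a lone GC box begins 58 bases before the start. Its fold enrichment of 12.7 (11.97 to 13.5) was the highest among the member starts, at percentile 67.2. The tag count of 1046 (984 to 1111) differed from that of REST by less than counting error, and the background of 81.2 tags was lower than the 137.5 at REST. No other region fell inside KDM1A over 64.2 kb.

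Each of the other 4 regions around KDM1A was distal. Fold enrichments of 5.66 and 170 tags were found 5.51 kb upstream, inside TEX46, and 7.06 and 273 tags 42.9 kb upstream. A region 79.5 kb downstream, inside LUZP1, had 7.72 and 256 tags, the highest fold enrichment of these 4, while the one 42.9 kb upstream had the most tags. The remaining one, with 5.11 and 226 tags, marks the limit of the rule, since its strongest summit lay 49.998 kb from the gene and its other summit outside the window. The nearest regions left out by the 50 kb limit were at HDAC1, 51.5 kb away with a fold enrichment of 4.29, and at HDAC2, 53.4 kb away with 12.9.

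HDAC1 and HDAC2 encode closely related deacetylases that often sit in the same complexes, and the ratios at their starts were nearly equal. HDAC1 lies on the plus strand at chr1:32292083-32333626, and its start region, chr1:32291687-32292852, gave a fold enrichment of 10.6 (9.71 to 11.6). HDAC2 lies on the minus strand at chr6:113933028-113971148, and its start region, chr6:113969814-113971656, gave 10.6 (10.05 to 11.1). Their tag counts were far apart: 521 (477 to 568) at HDAC1, the lowest of the member starts at percentile 23.1, against 1603 (1525 to 1683) at HDAC2, at percentile 80.3. Backgrounds of 48.2 and 150.8 tags brought the ratios together. The HDAC1 region had 3 summits, with 521, 357 and 158 tags from 60 bp upstream of the start into the gene. The HDAC2 region had 6, with 1603, 1208, 571, 556, 698 and 487 tags from 277 bp upstream into the gene, and it is shared with the end of the antisense gene HDAC2-AS2. Accessibility has no strand, so signal of HDAC2 and HDAC2-AS2 cannot be told apart there.

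Around the deacetylase genes the rest of the signal also differed in kind. HDAC2 had 4 distal regions and, beyond the shared start region, none at the end of another gene. The strongest, chr6:113994758-113995472, lay 23.9 kb upstream and inside HDAC2-AS2, with a fold enrichment of 11.2 and 407 tags (368 to 449), at percentiles 96.8 and 86.5 of distal regions. Its single summit had a higher ratio than the HDAC2 start with fewer tags, 407 against 1603. A region 9.99 kb upstream had 6.57 and 201 tags, one inside the gene, 34.9 kb from the start, had 7.53 and 267, and one 61.7 kb downstream had 4.43 and 133. Around HDAC1, in contrast, 3 of 5 regions lay at ends of other genes, with fold enrichments of 3.25 at FAM167B, 5.34 at MARCKSL1 and LOC124903949, and 10.6 at LOC105378629 and LOC124903933. The lone distal region at HDAC1, 4.87 kb beyond its downstream end, had the lowest fold enrichment of the members' distal regions, 2.02, on 225 tags, at percentile 0.149 of distal regions by ratio and 59.1 by tags. No region fell inside HDAC1 apart from the one at its start.

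SIN3A, the scaffold of the other REST arm, lies on the minus strand at chr15:75369379-75455815, with listed starts at 75455815 and 75451690, which are 4125 bp apart. Its start had the most tags of the members and the lowest ratio. Around and between the starts stood 4 separate regions within 5.616 kb, 2837 bp of it covered, with 5 summits. From the first start into the gene the highest tag counts of these regions were 980, 2352, 2889 and 1336. The matching fold enrichments were 2.01, 4.44, 5.46 and 2.59, over backgrounds of 487.6, 529.3, 528.0 and 514.6 tags. The first region had its summit 20 bp before the first start, inside the first sequence printed for SIN3A, while the strongest lay 313 bp before the second start, just beyond the printed stretch. So the start at the outer end of the gene had fewer tags than the start inside it, with intervals of 920 to 1043 and 2785 to 2996 that did not overlap.

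A count of 3 regions within 1 kb of its starts set SIN3A among 1.51% of genes with a region at a start. The strongest summit, with 2889 tags, ranked 79 of 65234 regions by tag count and at percentile 99.3 of gene starts, but at percentile 13.6 by ratio. Only 9 regions of the list had a background above 480 tags, and 4 of them were these. That limit lies just below the lowest background of the 4, 487.6, so the count depends on it. Above 300 tags there were 103 regions. The other 41 regions of the members had backgrounds between 29.2 and 171.2 tags. Of the 11463 protein-coding genes with a region at a listed start, only SIN3A and ING1 had a background above 480 tags at the start summit of highest ratio. Genes without a listed start were not checked. ING1, which encodes another subunit of SIN3 complexes, is named here after its values were seen. At ING1, on chromosome 13, 2 neighbouring regions had 3021 and 2755 tags, fold enrichments of 5.67 and 5.18, and backgrounds of 531.6 and 530.6. The region with 3021 tags is shared with an end of CARS2. The other 3 regions above 480 tags lie close together on chromosome 16, outside any gene. Fold enrichment and tag count thus place the SIN3A starts at opposite ends of the members, and how the caller's background enters that ratio was not tested.

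**Figure D3:**
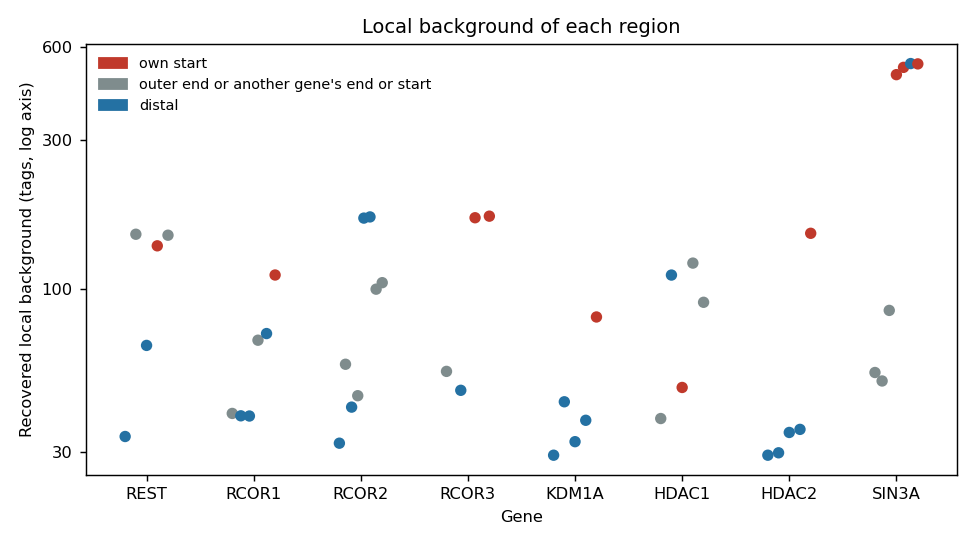
Recovered local background in tags (log axis) of each of the 45 regions, by gene, coloured by place as in the map of the windows. The 4 regions around the SIN3A starts sit between 487.6 and 529.3, above the 29.2 to 171.2 of all other member regions.

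Past that cluster no region was found along SIN3A for 81.3 kb. The next was at its other end, at the start of MAN2C1, with a fold enrichment of 8.48 and 731 tags, and further out lay regions of NEIL1 (4.03 and 220 tags) and COMMD4 (11.5 and 591 tags). The window of 7 regions stood at percentile 74.9 of protein-coding genes. Apart from that cluster, distal regions inside the gene were listed for RCOR1, RCOR2 and HDAC2, and none for SIN3A, KDM1A, HDAC1, REST or RCOR3.

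Across the 8 windows the number of regions ran from 4 to 8, with a median of 5, the same as the median of 5 over 20037 protein-coding genes. By place, 10 regions were at the gene's own start, 2 at its own outer end, 13 at the end of another gene and 20 were distal. Distal regions made up 44.4% of the member regions and 70.5% of all regions of the list. The windows are drawn around genes while the list is not, and whether the rule accounts for the lower share was not tested. At least 1 distal region was present in 8 of 8 windows, as in 80.7% of all protein-coding genes, with a median of 2.5 per member and 2 per gene overall. For SIN3A the call rested on 1 region of its start cluster, between the 2 listed starts and 1702 bp from the first. Of the 20 distal regions 6 lay inside the member gene. Their fold enrichments ran from 2.02 to 12.8 with a median of 5.62, beside 5.06 for all distal regions. The REST region at 12.8 and the HDAC2 region at 11.2 were the highest, followed by RCOR3 at 8.46, and then KDM1A and HDAC2 at 7.72 and 7.53. Widths of all 45 ran from 251 to 2446 bp, with a median of 888 bp against 882 bp in the list. The highest score of 1000 was held by 40 of the 45 regions. In the list 73.7% of entries carry it, a share of unlike unit, since a region has 1 entry per summit.

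**Figure D4:**
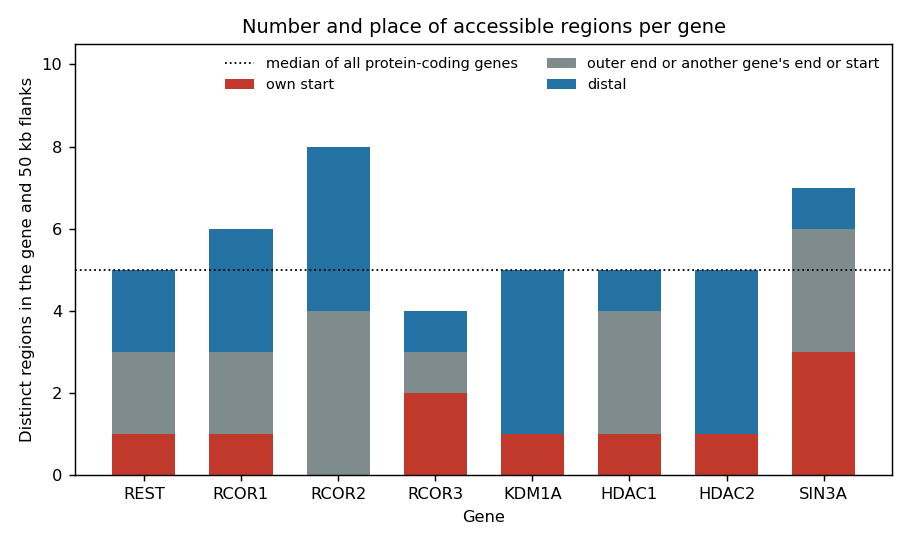
Number of distinct regions in each gene and its 50 kb flanks (vertical, bars from 0), split by place. Totals run from 4 at RCOR3 to 8 at RCOR2 around the dotted median of 5 of all protein-coding genes; KDM1A, HDAC2 and RCOR2 each have 4 distal regions.

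Other genes of the pathway were taken from lists by role. Of 31 genes for partners in the CoREST and SIN3 complexes, 27 had a listed start and 26 a summit within 1 kb of it, beside 72.4% of all protein-coding genes. The exception was SIN3B, the paralog of SIN3A, which had a region at an outer end. The median fold enrichment of the 26 was 9.05, with 10 above the median of all genes. The highest were RBBP4, a histone-binding subunit, at 13.8, and HMG20B, a DNA-binding CoREST subunit, at 13.5. The lowest were GSE1, a protein found with CoREST, at 2.74, and ING2, a relative of ING1, at 3.98. The window of GSE1 held 48 regions, 40 of them in the gene, counts that were not matched for gene length. Partners without a listed start were left out of these counts.

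Genes that control REST itself were fewer. SRRM4 is a splicing factor that diverts REST transcripts to a shortened form in neurons. It had a fold enrichment of 9.73 at its start and 12 distal regions in its window. BTRC also had 12, and neither count was matched for gene length. Of the ubiquitin pathway genes that act on REST protein, FBXW11 had 11.2, and the deubiquitinases USP15 and USP7 had 13.1 and 10.8. All 4 regulators with a listed start were thus called, beside 72.4% of all genes, with a median of 11.0, and BTRC and TERF2 had no listed start.

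Among 22 genes known as REST targets, 15 had a listed start and 14 of these a summit there, again beside 72.4% of all genes. NPPA, a heart peptide gene, was the one without. The median fold enrichment of the 14 was 7.07, and 0 of them exceeded the median of all genes, 10.8. The median of their highest tag counts was 563.5, beside 989 for all genes. SYN1 and SYP, genes for synaptic vesicle proteins, were highest, both at 10.8, and L1CAM, for an adhesion molecule, and TUBB3, for a neuronal tubulin, lowest at 4.10 and 4.77. So the targets called had, by median, a lower ratio than the 7.47 of REST and its corepressors and than the 9.05 of the partners, with no test of the difference. Targets without a listed start were left out in the same way.

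**Figure D5:**
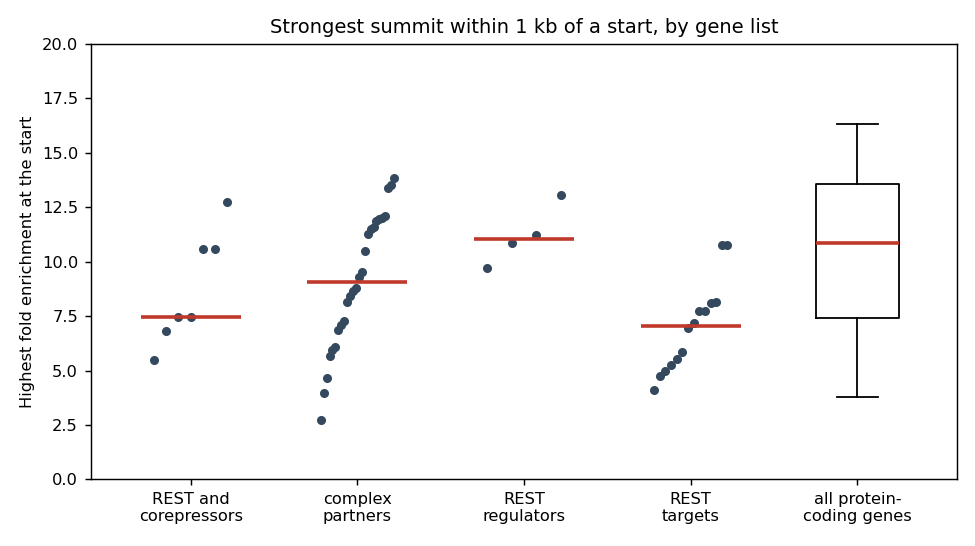
Highest fold enrichment within 1 kb of a start (vertical, from 0) for each called gene of the lists, with red lines at the medians (7.47, 9.05, 11.0 and 7.07), beside a box of all protein-coding genes with its median at 10.8 and its quartiles at 7.42 and 13.6. Whiskers reach the 5th and 95th percentiles; no target lies above the median of all genes.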

How the data were processed

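ATAC-seq of 3 samples in 1 group was analysed from 1 pooled list of peaks, whose name in the labels gives it as IDR-optimal (IDR, irreproducible discovery rate). The build is hg38, per the submitters' processing notes. The aligner, the peak caller and their versions are not given in the sources used here, and 0 other columns of values per sample were present. Each entry has an interval and a summit. The fold enrichment was deposited by the authors as a linear ratio. The authors also deposited −log10 p (5.92 to 2945) and −log10 q (4.28 to 2939) per summit, and a score from 540 to 1000 whose scaling is not stated in the labels.

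The tag count behind each summit was recovered from ratio and −log10 p taking the p as a Poisson upper tail and adding a pseudocount of 1 to count and background. All 145092 entries gave a whole number to within 0.00079 units of −log10 p, and the next whole number missed by a median of 0.266. Tag counts ran from 58 to 3783 with a median of 189. Backgrounds had a floor of 29.2 tags, held by 14.6% of entries, and 99.8% of those above it were within 0.0005 of a multiple of 0.015, which is the worth of 1 tag averaged over 10 kb under an assumed tag length. The depth of each sample is unknown.

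Entries with equal bounds were merged into regions, each described by whichever entry had the highest −log10 p, and positions count from 1. Genes and starts came from RefSeq tables for GRCh38.p14. A summit lay within 1 kb of a start in 72.4% of protein-coding genes in place, and in 8.22% and 8.53% of them after moving starts by 10 and 100 kb. The genes named are the 8 members with their regions, neighbours for location, and from each list the genes without a region at the start and the 2 highest and 2 lowest. Some genes of the lists are not reported here by name. The members, lists and words were chosen with earlier results of these data known. No test was run, since the list has no value per sample and genes are not replicates. Alternatives were other flanks, start windows and thresholds, overlap in place of summits, outer ends in place of starts, tag counts in place of ratios, and genes of similar length. Python 3.11.15 was used with numpy 2.4.6, scipy 1.17.1, pandas 2.3.3 and matplotlib 3.10.9, and the recovery of counts was tested on simulated data.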

Additional observations from a re-analysis of the deposited data

How the results depend on the processing

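No paired analysis was possible because all 3 replicates were pooled into 1 list of a single group, and none could be left out. The 45 regions became 15 without a flank, 23 with flanks of 10 kb and 81 with 100 kb, and 115 when every summit entry was counted. They were 42 with a score of at least 830, 37 with fold enrichment above 3.86, and 45 by any overlap of 1 bp. The limit of 3.86 is the median of all summit entries, whereas a region carries the value of its strongest summit. It is therefore not the middle of the regions, and the share of all regions that pass either limit is not given. The median percentile of the members' start summits was 25.4 by fold enrichment and 53.2 by recovered tag count, 26.3 in a window of 500 bp and 25.4 in one of 2 kb. Using tags in place of ratios moved SIN3A from percentile 13.6 to 99.3, REST from 25.4 to 52.6 and HDAC1 from 48.2 to 23.1. The median percentile of the number of regions was 54.2, and 58.2 for distal regions only, 70.7 with flanks of 10 kb (26.1 for REST), 63.8 with 100 kb, 73.4 with none, and 59.7 among genes of similar length. The cause was not tested. All 7 members with a listed start were called under each of the 5 other start windows and thresholds, and 8 of 8 by outer ends. Over all protein-coding genes the shares called were between 68.5% and 74.1% under those 5, and 68.8% by outer ends. By outer ends the share called was 93.5% of 31 partners and 90.9% of 22 targets. By starts it was 96.3% of 27 partners and 93.3% of 15 targets. Windows of 500 bp and 2 kb and the score limit left the shares by starts as they were. In all, 150 alternatives were run over 30 results. Among the alternatives for single genes, 80 moved a value and 37 did not. Among those for the main results, 11 moved a value and 22 did not. Counts limit the precision of each summit, from 58 tags at the weakest of the list to 3783 at the strongest.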
